A study of Homo sapiens with 24 samples.

Results

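The comparison described here asks whether STM2457 changed the same messenger RNAs, by the same amount, in the human glioblastoma lines LN229 and U87 MG. Its value for a gene is the STM2457 effect in LN229 minus the STM2457 effect in U87 MG, each effect being the mean of log2(normalized count + 1) after STM2457 minus that after DMSO. A value above 0 therefore means a larger rise or a smaller fall in LN229. The members were the genes present in the tables of both lines, matched by Ensembl identifier, with a mean of at least 10 normalized counts over the 12 libraries, which gave 16075 of the 19282 genes of both tables and of the 34496 genes of the whole series. A mean of at least 10 in each table held for 13887 of them, while 892 reached it in U87 MG only and 1296 in LN229 only.

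Polyadenylated RNA was sequenced from 4 groups of 3 libraries, out of 24 libraries in 8 groups. Both lines are established cell lines labelled as cultured glioma cells, and both were kept for 96 h with 50 µM STM2457 or an equal volume of its solvent DMSO, without any other agent. The medium of U87 MG was EMEM containing serum at 10%, and the libraries were made with a TruSeq stranded kit after a separate purification of polyadenylated RNA, whereas LN229 was kept in DMEM containing pyruvate and serum at 5%, and its libraries were made with a Watchmaker kit. Line, medium, serum and kit therefore changed together, and their parts in a difference between the effects cannot be told apart. A step that acts alike on DMSO and STM2457 libraries of a table cancels within each effect, but one that acts differently at different expression levels does not. Nothing cancels where levels of the lines are set side by side, since each table was normalized on its own. Such comparisons of level describe the listed values only and were not tested. The labels do not say that replicates were separate cultures. If they were not, a p-value reflects no more than the variation among these libraries, which may be technical.

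STM2457 is an inhibitor of METTL3, the catalytic subunit of the nuclear complex that writes N6-methyladenosine (m6A) on messenger RNA. METTL3 acts as a heterodimer with METTL14, and WTAP, VIRMA, RBM15, RBM15B, ZC3H13 and CBLL1 are cofactors of the complex. Reader proteins of the YTH family bind the mark, and YTHDF2 is known for speeding the decay of marked transcripts, while FTO and ALKBH5 can remove it. No m6A was measured in these libraries, so the values are RNA levels only.

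Before the results, a conflict of names has to be stated. A further table of the series compares parental with resistant cells and repeats the DMSO libraries. For the U87 family, each of its 6 columns matched best the library of its own name (SD of the log2 ratio across genes 0.0583 to 0.0601). For the LN229 family, all 6 matched best a library of like number and opposite name, so that LN229 met LN229-R, labelled as TMZ resistant (0.0580 to 0.0620). The gene MGMT shows it: it was not listed in the LN229 table used here and had 188 to 205 normalized counts in the DMSO libraries labelled LN229-R, but in that further table it was at 0 in LN229-R and at 191 to 209 in LN229. LN229 here always means the libraries labelled LN229 in their table of DMSO against STM2457. Which of the names is right cannot be told from these files, so the counts for the gene lists are also given with the libraries labelled LN229-R in their place, as is the difference of any described gene whose call changes with them. Both versions share the U87 MG libraries and are not independent.

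Normalized counts summed to between 23044279 and 25349361 per library in U87 MG and to between 24101385 and 25055940 in LN229. Correlations between replicates were 0.9734 to 0.9873. Cytosolic ribosomal protein genes took 2.494% of the normalized counts in replicate 2 of LN229 with STM2457, against 3.198 and 3.468% in the other STM2457 replicates, 3.545 to 4.045% in LN229 with DMSO and 3.266 to 3.714% in U87 MG. That library also stood apart in interferon genes, and values without it are given where they differ. Of the markers of glioma and astrocytes, VIM, the intermediate filament vimentin, and CD44, the hyaluronan receptor, were abundant in both lines, with group means of 126832.7 and 30542.2 in U87 MG with DMSO and 64344.9 and 13682.4 in LN229 with DMSO. The glial identity genes SOX2 (means of 0.4 and 1031.4) and S100B (2.1 and 13844.3) were close to absent in U87 MG with DMSO and present in LN229 with DMSO, and GFAP, the filament of mature astrocytes, was low in both (21.6 and 82.7). Markers of the same list were split between the lines. With DMSO, SLC1A3 (1030.8 and 13.9), GJA1 (3267.1 and 833.4), SOX9 (330.4 and 107.3) and SLC1A2 (65.0 and 2.3) were higher in U87 MG. NES, FABP7, SALL2, POU3F2 and OLIG2 were higher in LN229.

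STM2457 had a different effect in LN229 and in U87 MG for 2653 of the 16075 genes (16.5%; limma, Benjamini-Hochberg adjusted p under 0.05), with the difference above 0 for 1630 (10.1%) and below 0 for 1023 (6.36%). The split between these directions depended on the scaling of the libraries: 61.4% of the calls were above 0 as deposited, 45.8% (1339 of 2926) with equal totals and 49.0% (1371 of 2800) with equal upper quartiles, and those scalings moved the median difference of all genes from -0.01 to -0.10 and -0.08. Within the lines, 6898 genes changed in LN229 (42.9%; 3689 rose, 22.9%, and 3209 fell, 20.0%) and 3140 changed in U87 MG (19.5%; 1807 rose, 11.2%, and 1333 fell, 8.29%). With equal totals 2242 rose and 1028 fell in U87 MG. The effects also spread more widely in LN229, with an SD across genes of 0.89 on the log2 scale against 0.59 in U87 MG, and a change of at least 1 (log2) in either direction was seen among the called genes for 2355 in LN229 and 711 in U87 MG.

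Across the 16075 genes the effects in both lines correlated with r = 0.34, given as a description, since genes are not independent replicates. Of the 2042 genes that changed in both lines, 1833 changed in the same direction (1215 rose and 618 fell) and 209 in opposite directions. In that opposite class 139 genes rose in LN229 and fell in U87 MG, and 70 did the reverse. Most differences came from genes that changed in LN229 and did not pass in U87 MG (1695 of 2653), followed by genes that passed in U87 MG and not in LN229 (372), genes that moved the same way but further in LN229 (269) or further in U87 MG (20), and 88 genes that passed in neither line by itself. The 95% interval of the difference lay within 1 log2 unit on either side of 0 for 8072 genes (50.2%), so for nearly as many genes a difference of that size in at least one direction was within the interval. Of the 1544 genes that changed the same way in both lines without passing the difference, 1254 had such a narrow interval.

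**Figure D1:**
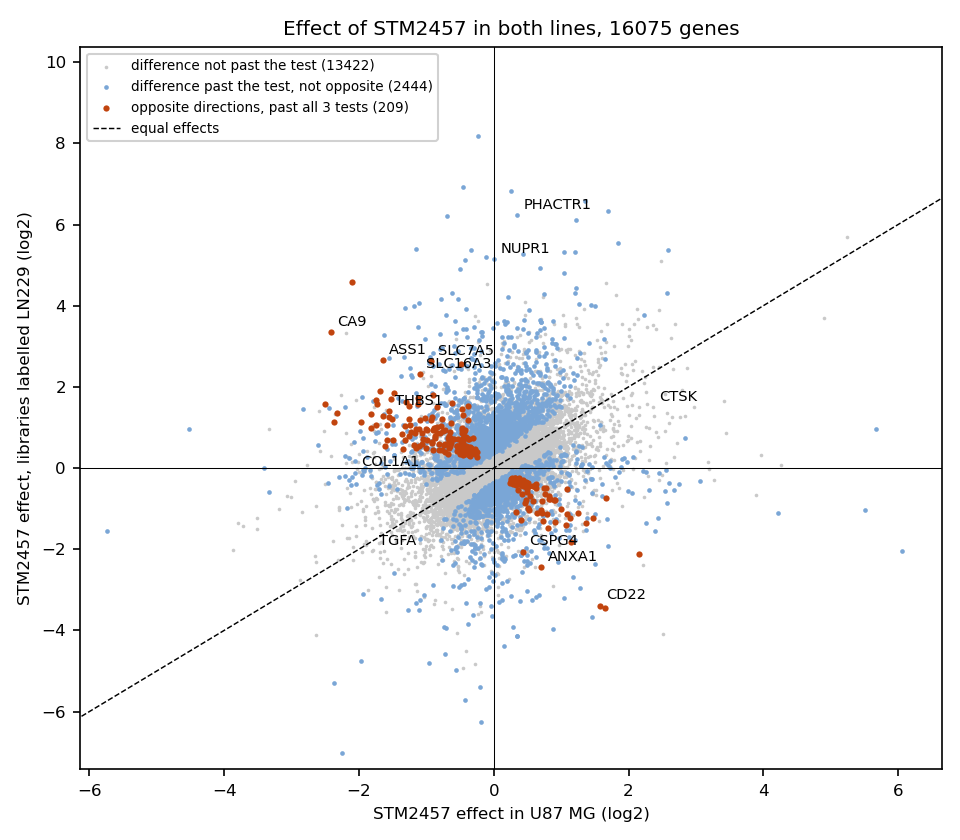
Each point is 1 of 16075 genes; the x axis is its STM2457 effect in U87 MG and the y axis that in LN229, both as log2 changes of normalized count + 1, and the dashed line marks equal effects. Gray points did not pass the test of the difference, blue and orange points (2653 together) passed it, and the 209 orange points changed in opposite directions. The cloud is taller than it is wide, with SDs of 0.89 in LN229 and 0.59 in U87 MG.

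The largest opposite changes with a rise in LN229 included transporters and enzymes of metabolism. SLC16A3 (ENSG00000141526, GRCh38 chromosome 17, 82228397 to 82261129, + strand) encodes the lactate exporter MCT4. It had 3858, 4832 and 4315 normalized counts in the DMSO replicates of U87 MG and 1668, 2114 and 2328 with STM2457. LN229 went from 769, 676 and 743 to 3410, 4574 and 3067. All DMSO values were above all STM2457 values in U87 MG and below them in LN229, so the groups did not overlap in either line. The effect was 2.32 (SE 0.15) in LN229 and -1.10 (SE 0.15) in U87 MG, and the difference was 3.41 (SE 0.22, 95% interval 2.94 to 3.88, adjusted p = 2.7e-06). With the libraries labelled LN229-R it was 3.86.

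CA9 (ENSG00000107159, chromosome 9, 35673856 to 35681159, + strand) encodes a membrane carbonic anhydrase and is a widely used marker of hypoxic tumour cells. U87 MG had 5375, 6320 and 10039 normalized counts with DMSO and 771, 2017 and 1433 with STM2457. The gene was near the lower limit of detection in LN229, at 0.809, 3.18 and 1.64 with DMSO and 30.5, 44.8 and 13.5 with STM2457. Its level thus fell from a high value in 1 line and rose from almost nothing in the other, without overlap between the groups of either line. The difference was 5.76 (SE 0.64, interval 4.38 to 7.15, adjusted p = 9.6e-05). The pseudocount shrinks the fold at such low counts. The same holds for ASS1, argininosuccinate synthase of arginine synthesis, which had 3634, 2954 and 2982 in U87 MG with DMSO, 950, 1062 and 1033 with STM2457, and 6.68, 1.96 and 7.56 against 40.2, 23.5 and 47.6 in LN229. Every STM2457 value of ASS1 lay below the DMSO values in U87 MG and above them in LN229. Its difference was 4.31 (SE 0.50, adjusted p = 0.00012), and 2.71 with the libraries labelled LN229-R.

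SLC7A5 (ENSG00000103257, chromosome 16, 87830023 to 87869488, - strand), the transporter subunit LAT1 that imports large neutral amino acids, had high counts in both lines. Its values were 8239, 8380 and 5048 with DMSO and 4174, 3076 and 3966 with STM2457 in U87 MG. In LN229 they were 5851, 5571 and 8331 with DMSO and 31794, 52471 and 38619 with STM2457. The listed DMSO values of the lines overlapped, and the listed STM2457 values were apart by more than any spread between replicates. The difference was 3.55 (SE 0.32, adjusted p = 2.9e-05).

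CIITA, the coactivator that controls MHC class II genes, is on chromosome 16 (10866222 to 10943021, + strand). It had 1806, 2237 and 2482 normalized counts with DMSO and 745, 529 and 822 with STM2457 in U87 MG, and 2755, 3400 and 3968 against 6699, 7333 and 10879 in LN229. No value of one treatment reached into the range of the other in either line. The difference was 2.93 (SE 0.29, adjusted p = 4.7e-05). THBS1, the matrix glycoprotein thrombospondin 1, went from 436, 489 and 347 to 195, 175 and 83.1 in U87 MG and from 5447, 4327 and 4976 to 12975, 9997 and 16910 in LN229 (difference 2.97, SE 0.39, adjusted p = 0.0003). CYP26B1, an enzyme that breaks down retinoic acid, had an effect of 1.14 in LN229 and -2.37 in U87 MG (difference 3.50, SE 0.37, adjusted p = 7.3e-05). FYB1, an adaptor protein of T cell signalling, had the largest difference of this class, 6.69 (SE 0.62, adjusted p = 3.2e-05), but only 3.05 to 5.59 normalized counts in U87 MG with DMSO, where its fall of -2.10 rests on a few counts.

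Among the genes that fell in LN229 and rose in U87 MG, ANXA1 and CSPG4 were abundant in both lines. ANXA1 (chromosome 9, 73151757 to 73170393, + strand) encodes annexin A1, a phospholipid-binding protein with anti-inflammatory actions. It had 9154, 9039 and 7513 normalized counts with DMSO and 11435, 15598 and 15184 with STM2457 in U87 MG. LN229 fell from 11753, 11406 and 12080 to 2619, 1592 and 2387. The STM2457 values were all above DMSO in U87 MG and all far below it in LN229. The difference was -3.16 (SE 0.24, interval -3.67 to -2.64, adjusted p = 7.8e-06).

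CSPG4 (chromosome 15, 75674322 to 75712848, - strand) encodes the proteoglycan NG2, a surface marker of oligodendrocyte precursors and pericytes. It had 3426, 4046 and 4696 in U87 MG with DMSO and 4967, 5513 and 5791 with STM2457, and it went from 27866, 24459 and 25844 to 6237, 5706 and 6849 in LN229. The listed values of the lines were closer together with STM2457 than with DMSO, since the LN229 libraries with DMSO stood far above all the others. The difference was -2.49 (SE 0.17, adjusted p = 4.1e-06). CD22, a sialic acid-binding lectin known from B cells, fell from 2697, 3343 and 2430 to 286, 298 and 223 in LN229 and had 10.5, 14.7 and 10.4 against 62.3, 17.9 and 45.2 in U87 MG (difference -4.97, SE 0.50, adjusted p = 4.7e-05). ADAMTS5, an aggrecan-cleaving protease, rose from 1664, 1946 and 1151 to 4165, 3957 and 3941 in U87 MG and fell from 196, 136 and 162 to 61.9, 35 and 115 in LN229 (difference -2.73, SE 0.46, adjusted p = 0.0017).

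Of the 70 genes that fell in LN229 and rose in U87 MG, the 8 with the largest differences and a mean of at least 100 normalized counts also included HSPA6, an inducible heat shock protein of the HSP70 family (-2.22), TLCD1 (-2.28), MATR3 (-2.40) and the sorting nexin SNX22 (-2.98). SNX22 reached that mean through LN229 alone, where it went from 275 to 370 with DMSO to 68.8 to 117 with STM2457. In U87 MG it was near the limit of detection, at 3.07, 4.16 and 3.46 with DMSO and 16.1, 4.72 and 9.42 with STM2457, and that change was at the threshold (adjusted p = 0.05 after rounding), so its rise there is uncertain. The symbol MATR3 belongs to 2 Ensembl identifiers in these tables, whose differences were -2.40 and -0.42, so reads may have been divided between them and this value is uncertain.

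**Figure D2:**
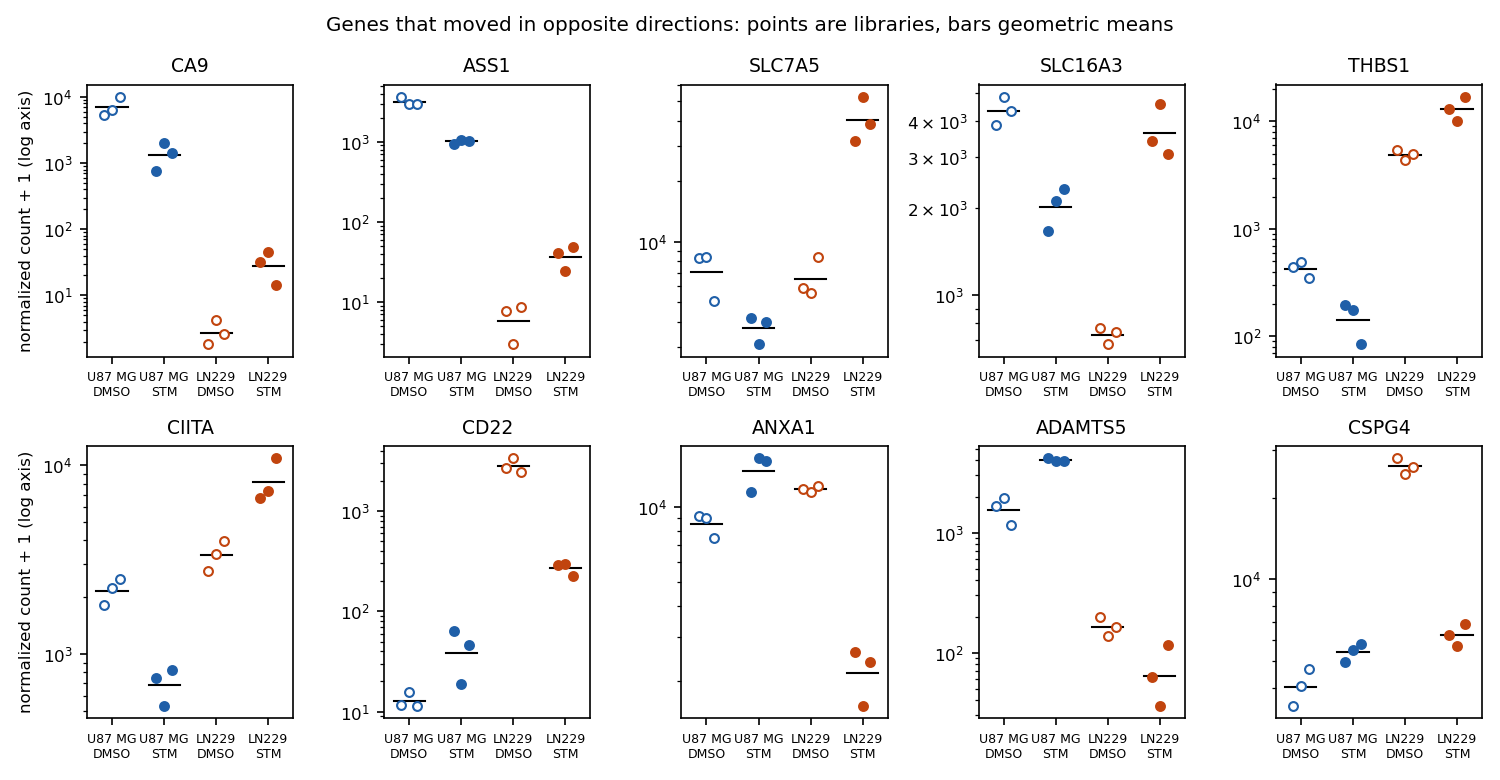
Normalized count + 1 (log axis) in each of the 12 libraries for 10 genes that changed in opposite directions; open points are DMSO and filled points STM2457, blue is U87 MG and orange LN229, and bars are geometric means. From CA9 to CIITA the filled points lie below the open ones in U87 MG and above them in LN229, and from CD22 to CSPG4 the order is reversed.

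Cells that lack oxygen, or in which the factor HIF is active for other reasons, raise glucose transporters, glycolytic enzymes and carbonic anhydrases, and HIF binds to DNA at short motifs with the core ACGTG. Of 34 measured genes of hypoxia and glycolysis, the difference was above 0 for 23 and below 0 for none, against 10.1% and 6.36% of all genes. These shares are the background for the lists that follow too. For the effects within a line it is 22.9% that rose and 20.0% that fell in LN229, and 11.2% and 8.29% in U87 MG. In U87 MG 22 of the 34 fell and none rose, and in LN229 13 rose and 1 fell. The median effect was -0.59 in U87 MG, 0.26 in LN229 and 0.97 for the difference, beside -0.01 for each over all genes. GAPDH, a glycolytic enzyme, fell in both lines (-0.65 in LN229 and -0.70 in U87 MG), with a difference of 0.05.

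SLC2A1, which encodes GLUT1, had 3676, 4071 and 3987 normalized counts with DMSO and 1379, 1909 and 1666 with STM2457 in U87 MG, and 2192, 1850 and 2244 against 3760, 6023 and 4931 in LN229. SLC2A3, which encodes GLUT3, had 3297, 3756 and 3200 against 2500, 2513 and 2812 in U87 MG and 756, 616 and 667 against 1974, 2056 and 1838 in LN229. For both, the treatments did not overlap in either line and moved apart in opposite directions. The differences were 2.46 (SE 0.22, adjusted p = 2.9e-05) and 1.92 (SE 0.14, adjusted p = 6.2e-06). ENO2, an enolase of glycolysis, fell from 8648, 10914 and 9689 to 6216, 7874 and 6989 in U87 MG and rose from 614, 662 and 671 to 1957, 1873 and 1570 in LN229 (difference 1.94, SE 0.16, adjusted p = 1.6e-05).

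Some other members of the list fell in U87 MG and did not pass in LN229. LDHA, the lactate dehydrogenase subunit that makes lactate, was at -1.12 in U87 MG and 0.07 in LN229, PGK1, a phosphoglycerate kinase, at -1.15 and 0.16, and P4HA1, a prolyl hydroxylase of collagen, at -1.27 and 0.17. VEGFA, the vascular growth factor, was at 0.96 in LN229 and -0.52 in U87 MG, where it did not pass. Without any 1 library the count above 0 was 19 to 22, and with the libraries labelled LN229-R it was 16 of 34. In that version LDHA and VEGFA, which passed here with differences of 1.19 and 1.48, did not pass, at 1.21 (adjusted p = 0.071) and 1.29 (adjusted p = 0.06).

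The promoters of this group are of interest because its members moved together and because the HIF core is a short word that can be looked up. RefSeq promoters (GRCh38.p14, the 250 bases before a start site) were found for 30 of the 34 genes, 51 promoters in all. The word ACGTG, on either strand, was in 21 of the 51 (41.2%) and in 6501 of 35116 promoters of all genes (18.5%). It was in a promoter of 12 of 19 genes with a called difference and of 6 of 11 without one. The promoters of the 3 called genes with the largest differences that hold it are printed 5′ to 3′ on the strand of the gene, with the word in capitals (as CACGT where it is on the other strand). They lie at chr9:35673678-35673927 (CA9, + strand), chr17:82228792-82229041 (SLC16A3, + strand, 1 of 5 listed starts) and chr12:6914330-6914579 (ENO2, + strand).
CA9: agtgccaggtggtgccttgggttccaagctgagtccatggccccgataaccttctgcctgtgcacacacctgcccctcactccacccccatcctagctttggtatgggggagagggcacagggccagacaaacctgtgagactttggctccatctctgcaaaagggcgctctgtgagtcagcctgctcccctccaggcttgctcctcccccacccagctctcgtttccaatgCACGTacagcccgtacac
SLC16A3: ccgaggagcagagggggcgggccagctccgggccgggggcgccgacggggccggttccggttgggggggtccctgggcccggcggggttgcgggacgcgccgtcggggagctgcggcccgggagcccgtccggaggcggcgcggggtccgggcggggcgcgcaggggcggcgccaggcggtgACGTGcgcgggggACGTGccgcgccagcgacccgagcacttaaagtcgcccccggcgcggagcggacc
ENO2: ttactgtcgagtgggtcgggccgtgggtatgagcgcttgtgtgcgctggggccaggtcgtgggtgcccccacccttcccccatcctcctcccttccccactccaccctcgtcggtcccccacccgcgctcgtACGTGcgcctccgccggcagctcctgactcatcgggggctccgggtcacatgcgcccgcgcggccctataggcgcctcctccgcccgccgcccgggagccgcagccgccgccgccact
In CA9 the match begins 18 bases before the start site, in SLC16A3 there are matches at 68 and 55 bases before it, and in ENO2 1 at 118 bases before it. A match is a description of the letters, and no binding was measured.

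ATF4 is the transcription factor of the integrated stress response, which raises amino acid transporters, amino acid synthesis and factors such as ATF3, CHAC1 and DDIT3 when translation initiation is restrained. Of 32 measured targets the difference was above 0 for 18 and below 0 for none. In LN229 20 rose and 1 fell, and in U87 MG 4 rose and 7 fell. The median effect was 0.86 in LN229, -0.31 in U87 MG and 1.06 for the difference. ATF4 itself rose in LN229 (0.64) and was at -0.06 in U87 MG, and its difference did not pass (0.70, adjusted p = 0.11).

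ATF3 (ENSG00000162772, chromosome 1, 212565334 to 212620777, + strand), a stress-induced transcription factor, had 450, 515 and 539 normalized counts with DMSO and 577, 680 and 682 with STM2457 in U87 MG, where it did not pass. In LN229 it had 287, 267 and 217 with DMSO and 1771, 2112 and 1820 with STM2457. The LN229 replicates with STM2457 were thus far above all 9 other libraries. The difference was 2.52 (SE 0.19, interval 2.12 to 2.92, adjusted p = 6.2e-06). NUPR1, a stress-induced chromatin protein, had 19, 14.4 and 43.4 against 840, 864 and 849 in LN229 and overlapping values of 2146, 1355 and 589 against 1770, 1091 and 908 in U87 MG (difference 5.14, SE 0.62, adjusted p = 0.00017). With STM2457 the listed NUPR1 values of LN229 came into the range listed for U87 MG.

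STC2, a secreted glycoprotein, and VLDLR, a lipoprotein receptor, moved in opposite directions. STC2 fell from 4926, 5395 and 3790 to 2086, 2164 and 2147 in U87 MG and rose from 55.6, 53.1 and 78.7 to 142, 286 and 217 in LN229 (difference 2.86, SE 0.32, adjusted p = 9.7e-05). VLDLR fell from 1814, 2392 and 2331 to 1283, 1516 and 1439 in U87 MG and rose from 801, 742 and 678 to 2209, 2263 and 2233 in LN229 (difference 2.21, SE 0.16, adjusted p = 6.2e-06). GDF15, a secreted stress cytokine, rose in both lines, by 2.96 in LN229 and 0.94 in U87 MG (difference 2.02, SE 0.38, adjusted p = 0.0036). The amino acid genes did not all follow: ASNS (difference 1.01), PHGDH (0.36) and SLC7A11 (0.48) did not pass. Without any 1 library the count above 0 was 16 to 22, and with the libraries labelled LN229-R it was 15 of 32.

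ATF4 with a C/EBP partner binds sites of the form TGATGNAA, where N is any base. RefSeq promoters were found for 26 of the 32 genes, and that word, on either strand, was in 6 of their 43 promoters and in 1104 of 35116 overall (3.1%). It was in a promoter of 4 of 16 called and 2 of 10 other genes. The promoters of the called genes with the largest differences that hold it are CHAC1 at chr15:40953221-40953470 (+ strand), where the word begins 209 bases before the start, and ATF3 at chr1:212565157-212565406 (+ strand, 1 of 2 listed starts), where it begins 191 bases before the start. Capitals mark the word, which reads TTNCATCA when it is on the other strand.
CHAC1: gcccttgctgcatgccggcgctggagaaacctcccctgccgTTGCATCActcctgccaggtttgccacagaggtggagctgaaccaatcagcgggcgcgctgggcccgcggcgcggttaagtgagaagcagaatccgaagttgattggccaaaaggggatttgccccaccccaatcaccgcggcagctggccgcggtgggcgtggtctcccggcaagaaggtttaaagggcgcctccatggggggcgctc
ATF3: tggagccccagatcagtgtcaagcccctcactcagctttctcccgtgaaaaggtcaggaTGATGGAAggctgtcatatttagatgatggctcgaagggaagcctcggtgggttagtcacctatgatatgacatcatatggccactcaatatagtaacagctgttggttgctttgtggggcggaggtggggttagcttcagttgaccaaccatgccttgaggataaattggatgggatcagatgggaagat
CHAC1, an enzyme that degrades glutathione, had an effect of 2.01 in LN229 and -0.87 in U87 MG, where it did not pass (difference 2.88, adjusted p = 0.0089).

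MHC class I molecules present peptides from the cytosol at the cell surface, with heavy chains such as HLA-B and HLA-C, the light chain B2M, the peptide transporter TAP and the transcriptional coactivator NLRC5. The difference was above 0 for 11 of the 16 measured genes and below 0 for none. In LN229 11 rose and in U87 MG 7 fell, with 4 genes in both sets, and the medians were 0.62, -0.51 and 1.11 for the difference. HLA-E (ENSG00000204592, chromosome 6, 30489467 to 30494205, + strand) had 4706, 5185 and 5628 normalized counts with DMSO and 4247, 4122 and 4228 with STM2457 in U87 MG, and 3846, 4151 and 3723 against 8925, 10862 and 8202 in LN229. The treatments did not overlap in either line, although the U87 MG effect of -0.30 did not pass the test. The difference was 1.54 (SE 0.15, adjusted p = 4.2e-05).

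HLA-B showed the opposite movement most plainly. Its values were 27156, 29503 and 31929 against 15363, 17117 and 15356 in U87 MG, and 5157, 5072 and 4301 against 8073, 15475 and 7147 in LN229. Replicate 2 of LN229 with STM2457 was far above its fellow replicates, which were themselves above DMSO. The differences of HLA-B and HLA-C were 1.88 (SE 0.30) and 1.84 (SE 0.29), and 1.54 and 1.51 without that replicate. These genes are near-identical in sequence, so reads may be assigned to the wrong member. The count for the list was 10 of 16 without that replicate, 9 to 14 over all omissions of 1 library, and 14 with the libraries labelled LN229-R.

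The type I interferon response, which drives many antiviral genes and also class I genes, had a median difference of 1.10 over 45 genes, but only 5 of them passed (all above 0). That share is near the 10.1% of all genes called above 0. In LN229 21 rose, beside 22.9% of all genes, and in U87 MG 2 fell, beside 8.29% of all genes. IFI6, an interferon-induced membrane protein, shows the spread behind this: it had 1153, 1176 and 1030 with DMSO and 4449, 30293 and 2000 with STM2457 in LN229. Replicate 2 with STM2457 was far above the others. Without it the median difference of the list was 0.41 and 9 genes passed. The count was unstable throughout. With the libraries labelled LN229-R 16 of the 45 passed, with a median of 1.31, and IFI6 did not (difference 3.64, adjusted p = 0.054, against 2.99 and 0.043 with the libraries labelled LN229). The count was 10 with a separate fit for each table or with the replicate number as a block, 9 with array weights and 1 without the variance trend. It was 0 without replicate 3 of LN229 with DMSO and 14 without replicate 3 of LN229 with STM2457. Apart from replicate 2 of STM2457, the other libraries that moved the count by over 1.5 times were LN229 DMSO replicates 1 and 2, U87 MG DMSO replicates 1 and 2 and U87 MG STM2457 replicates 2 and 3.

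**Figure D3:**
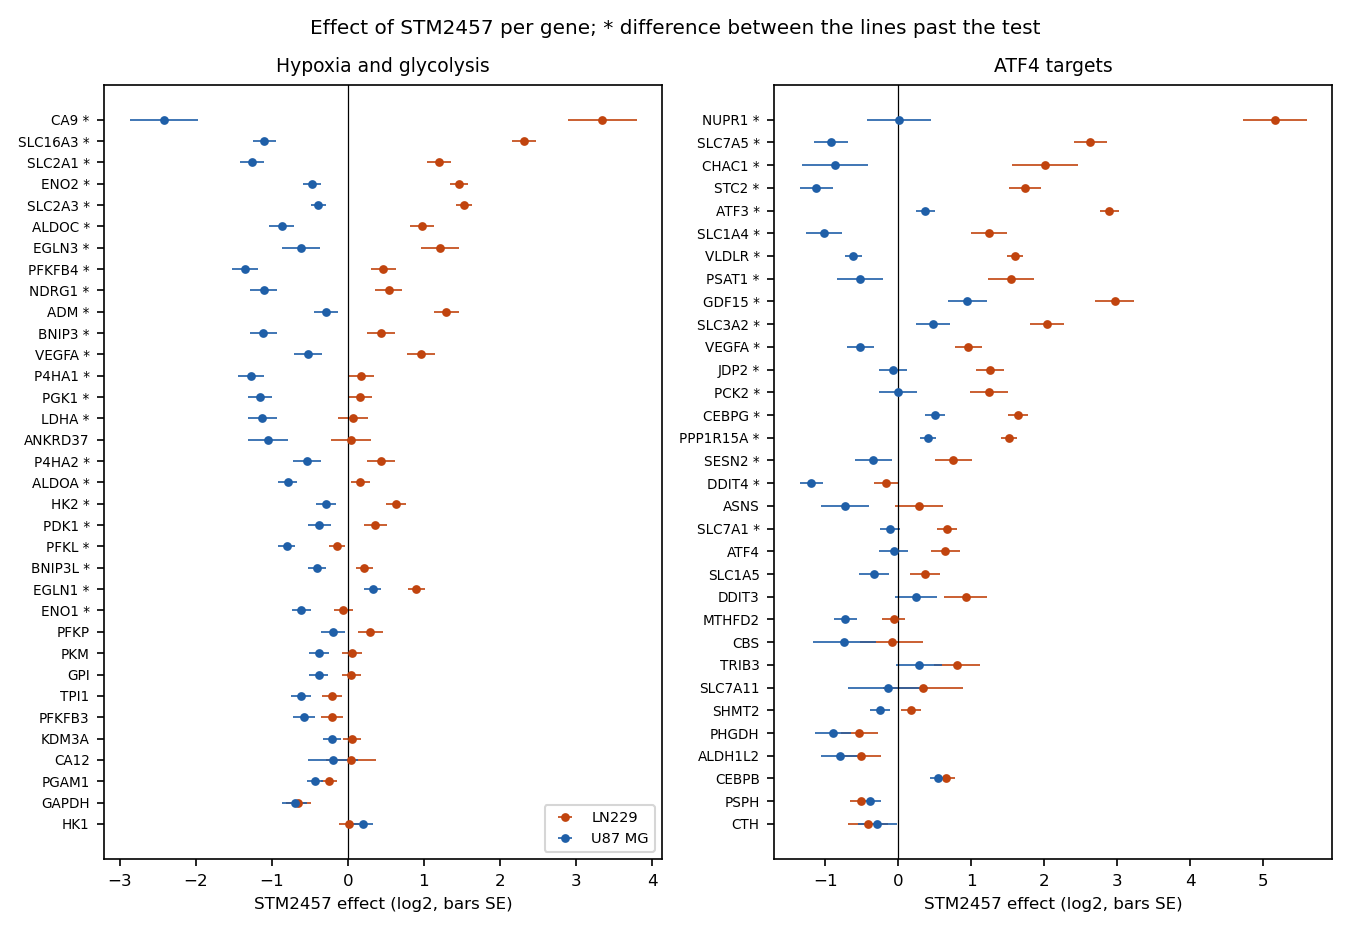
STM2457 effect (log2 change of normalized count + 1, points, with bars of 1 SE) of each measured gene in LN229 (orange) and U87 MG (blue), for hypoxia and glycolysis (34 genes) and ATF4 targets (32); an asterisk marks a called difference. Orange points lie to the right of blue ones for all but 1 gene of the first list (HK1) and all but 2 of the second (PSPH and CTH).

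NRF2 induces enzymes of glutathione and NADPH supply, haem breakdown and iron storage. Of 28 measured genes the difference was above 0 for 14 and below 0 for none. In LN229 23 rose and none fell, while in U87 MG 2 rose and 1 fell, and the medians were 0.83, -0.02 and 0.93 for the difference. The count above 0 was 19 with the libraries labelled LN229-R. HMOX1 (ENSG00000100292, chromosome 22, 35380361 to 35394214, + strand), haem oxygenase 1, had 334, 285 and 332 normalized counts with DMSO and 2104, 2570 and 2207 with STM2457 in LN229. U87 MG started high, at 5258, 5343 and 5513, and had 6108, 6846 and 10173 with STM2457. The treatments were separate in both lines, by much more in LN229. The gene rose by 2.85 (SE 0.15) in LN229 and 0.49 (SE 0.15) in U87 MG, and the difference was 2.36 (SE 0.22, adjusted p = 3.1e-05).

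The aldo-keto reductases AKR1B1 and AKR1C1 rose in LN229 without a passing change in U87 MG. AKR1B1 had 5594, 4833 and 4873 against 14144, 16861 and 9661 in LN229 and 21426, 20578 and 17589 against 19502, 20696 and 19329 in U87 MG (difference 1.37, SE 0.23, adjusted p = 0.0017). AKR1C1 had a difference of 1.82 (SE 0.32, adjusted p = 0.0023), though its near-identical relatives can share its reads. NQO1, a widely used NRF2 target, had a difference of 0.62 that did not pass (adjusted p = 0.072).

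Iron genes overlap with that list. Of 15 the difference was above 0 for 7 and below 0 for none, with a median of 0.64, and with the libraries labelled LN229-R 6 were above 0. The ferritin heavy chain gene FTH1 was among the most abundant, with 51909, 52237 and 55631 against 129708, 151726 and 108578 in LN229 and 221514, 208379 and 231731 against 250950, 291739 and 245539 in U87 MG. Its rise in LN229 was 1.27, and its value in U87 MG, 0.25, did not pass (difference 1.03, SE 0.23, adjusted p = 0.0089). AIFM2, which encodes the ferroptosis suppressor FSP1, had 558, 553 and 547 against 1151, 1763 and 1164 in LN229 and overlapping values in U87 MG (difference 1.36, SE 0.21, adjusted p = 0.0009).

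Lysosomes degrade macromolecules with acid hydrolases, and many of their genes carry the motif CACGTGA, to which TFEB, TFE3 and MITF bind. Of 43 measured hydrolases and membrane proteins the difference was above 0 for 24 and below 0 for 1. In LN229 32 rose and 1 fell, and in U87 MG 10 rose and 4 fell, with medians of 0.90, 0.12 and 0.67 for the difference. No gene of this list changed in opposite directions, which only 209 of all 16075 genes did. The counts were 20 above 0 and 1 below with the libraries labelled LN229-R.

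SMPD1 (ENSG00000166311, chromosome 11, 6390431 to 6394998, + strand), acid sphingomyelinase, had 3413, 3068 and 3281 normalized counts with DMSO and 9881, 9071 and 8679 with STM2457 in LN229. In U87 MG it had 3677, 3774 and 4620 against 4356, 4246 and 4358. The listed values with DMSO were of like size in both lines, and only the LN229 libraries with STM2457 stood apart, though the scales of the tables may differ. The difference was 1.39 (SE 0.13, interval 1.10 to 1.68, adjusted p = 4.3e-05). NEU1, a lysosomal sialidase, rose in both lines, from 1334, 1323 and 1460 to 4405, 5198 and 4217 in LN229 and from 1251, 1252 and 1085 to 1693, 1668 and 1786 in U87 MG (difference 1.22, SE 0.14, adjusted p = 0.0001). The mannosidase MANBA (difference 1.20, SE 0.14) and the protease cathepsin L, CTSL (difference 1.42, SE 0.17), rose in LN229, with effects of 0.17 and 0.05 in U87 MG that did not pass. SCARB2, the receptor that carries glucocerebrosidase to lysosomes, was the 1 gene with a difference below 0 (-0.51). CTSK, cathepsin K, rose in both lines (1.51 in LN229 and 2.36 in U87 MG) and its difference of -0.85 did not pass.

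RefSeq promoters were found for 27 of the 43 genes. The word CACGTGA, on either strand, which contains the HIF core, was in 10 of their 41 promoters (24.4%) and in 1161 of 35116 overall (3.3%), and in a promoter of 7 of 17 called and 2 of 10 other genes. Genes of the chromosome named in the processing section were not considered for printing. Among the others, the promoters of the called genes with the largest differences that hold it are NEU1 at chr6:31862822-31863071 (- strand, the word beginning 127 bases before the start) and CTSD, cathepsin D, at chr11:1763928-1764177 (- strand, 47 bases before the start). Capitals mark the word, which reads TCACGTG on the other strand.
NEU1: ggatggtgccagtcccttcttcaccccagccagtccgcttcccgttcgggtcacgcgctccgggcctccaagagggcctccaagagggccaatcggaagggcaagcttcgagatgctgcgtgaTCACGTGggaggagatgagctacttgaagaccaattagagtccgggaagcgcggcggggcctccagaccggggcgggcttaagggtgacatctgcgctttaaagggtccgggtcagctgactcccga
CTSD: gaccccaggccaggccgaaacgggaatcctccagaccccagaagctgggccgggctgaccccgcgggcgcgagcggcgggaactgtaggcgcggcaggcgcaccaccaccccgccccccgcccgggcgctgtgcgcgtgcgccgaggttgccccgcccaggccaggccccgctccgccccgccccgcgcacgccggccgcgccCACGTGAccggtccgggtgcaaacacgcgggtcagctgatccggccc
CTSD rose by 1.62 in LN229 and 0.56 in U87 MG (difference 1.06, adjusted p = 0.015).

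The vacuolar proton pump acidifies lysosomes. Of its 21 measured subunits 14 rose in LN229 and 3 in U87 MG, beside 22.9% and 11.2% of all genes. The difference was above 0 for 7 of the subunits and below 0 for none, with a median of 0.35. It was above 0 for 6 of them with the libraries labelled LN229-R. ATP6V0E1, a membrane subunit on chromosome 5 (172983757 to 173035445, + strand), rose in both lines, from 1921, 1940 and 2067 to 8645, 8881 and 7622 in LN229 and from 1360, 1165 and 1397 to 2334, 2184 and 2453 in U87 MG. The LN229 libraries with STM2457 were well above every other library. The difference was 1.25 (SE 0.13, adjusted p = 6.6e-05). The machinery of autophagy had no such shift of its median, which was 0.02. Of 30 genes 5 were above 0 and 2 below 0 (6 and 1 with the libraries labelled LN229-R). Of all genes 10.1% were above 0 and 6.36% below, so the count below 0 was near that share. Within the autophagy list the receptor OPTN had a difference of 1.15 (SE 0.17, adjusted p = 0.00078) and MAP1LC3B, the standard marker of autophagosomes, 0.66 (SE 0.13, adjusted p = 0.0042).

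FLCN and FNIP2 act together at the lysosome, where folliculin and its partners govern TFEB, TFE3 and MITF through Rag GTPases. Of 17 measured genes of this circuit the difference was above 0 for 3 and below 0 for 1 (4 and 1 with the libraries labelled LN229-R). FLCN rose in LN229 (1.07) and was at 0.13 in U87 MG (difference 0.94, SE 0.23, adjusted p = 0.017). FNIP1 (0.68, adjusted p = 0.035) and MITF (0.89, adjusted p = 0.039) also had a difference above 0. Each of these 2 lost the call in 9 of the runs without 1 library. FNIP2 went the other way, with 1134, 814 and 868 against 2695, 2526 and 2243 in U87 MG and overlapping values of 781, 565 and 664 against 626, 759 and 771 in LN229 (difference -1.31, SE 0.21, adjusted p = 0.0013). GPNMB, a glycoprotein of lysosomes and melanosomes, had 2579, 920 and 3504 against 53842, 22684 and 47284 in LN229 and 1493, 608 and 221 against 4672, 1838 and 1018 in U87 MG. The spread between U87 MG replicates was wide, and the difference of 2.44 (SE 0.98) did not pass (adjusted p = 0.11). With the libraries labelled LN229-R it was 3.53 and passed (adjusted p = 0.015).

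**Figure D4:**
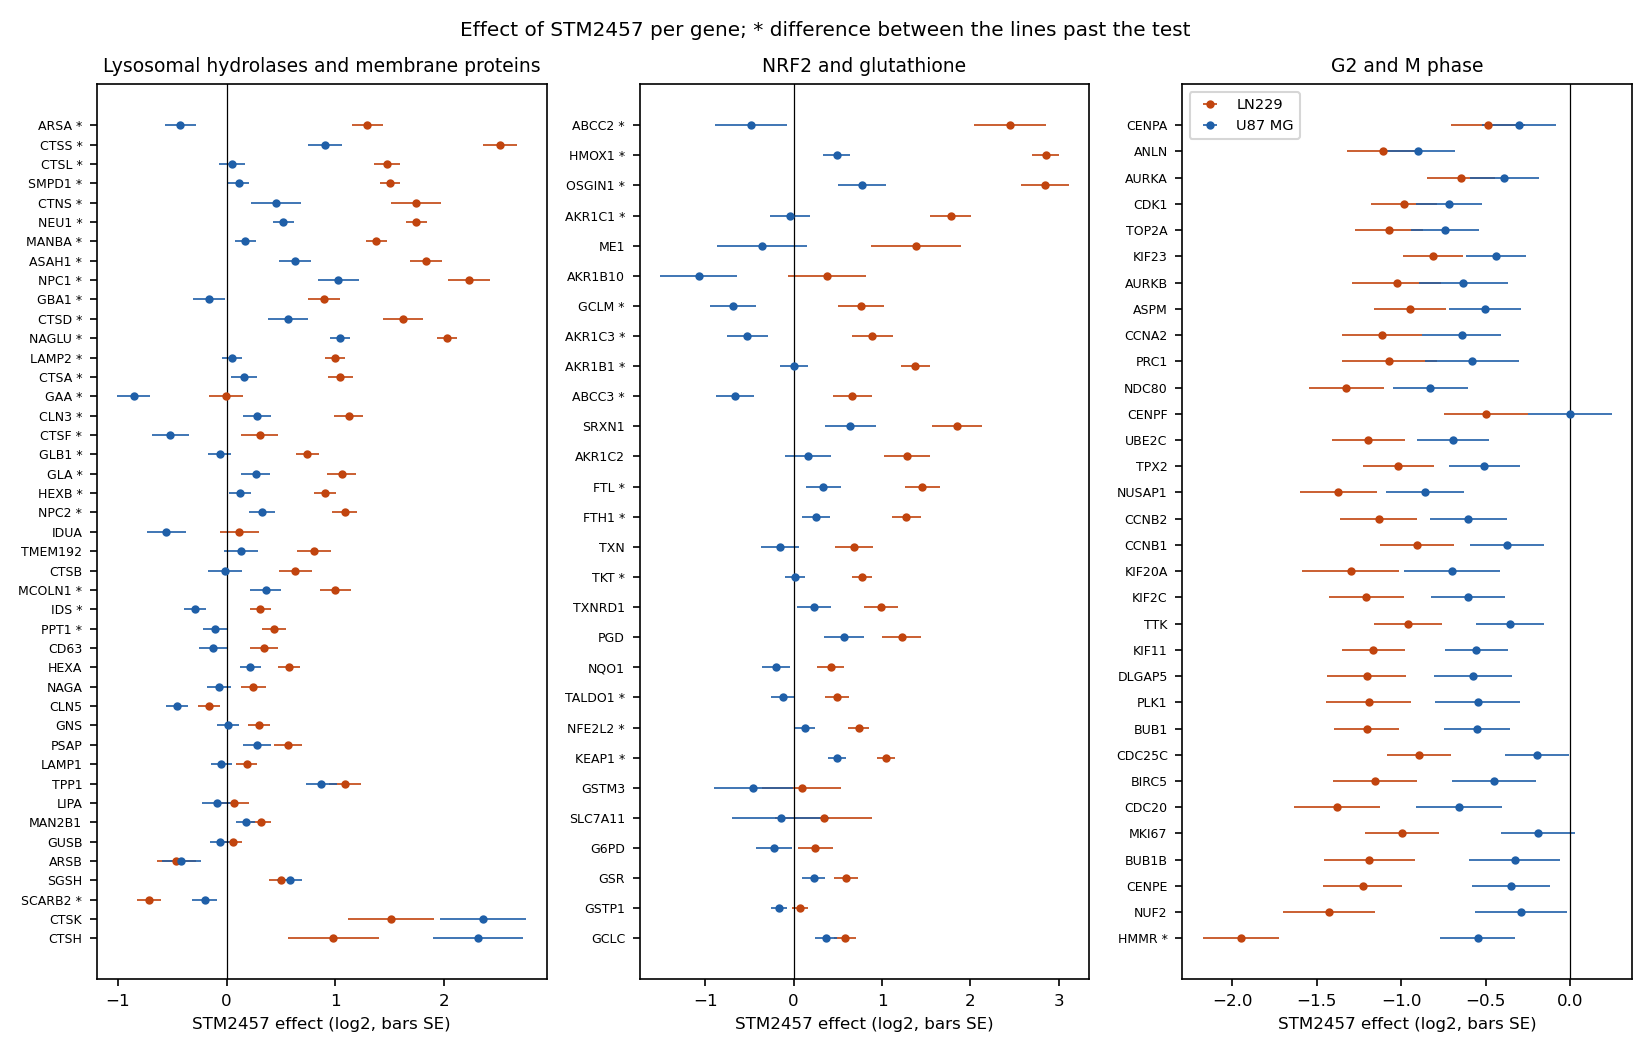
STM2457 effect (log2 change of normalized count + 1, points, with bars of 1 SE) of each measured gene in LN229 (orange) and U87 MG (blue), for lysosomal hydrolases and membrane proteins (43 genes), NRF2 and glutathione (28) and G2 and M phase (32); an asterisk marks a called difference. Most lysosomal and NRF2 genes have the orange point to the right, at medians of 0.90 and 0.83, and all G2 and M phase genes have it to the left, at a median of -1.12, though only HMMR is marked.

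Most genes of the cell cycle fell in LN229, while only a minority passed in U87 MG, where the medians were also below 0. Few of them passed the test of the difference. Of 32 genes of G2 and M phase, 30 fell in LN229 and 6 in U87 MG, with medians of -1.12 and -0.55. In this list HMMR, a spindle protein, was the 1 gene that passed the difference (-1.40, SE 0.32, adjusted p = 0.0098), beside 6.36% of all genes below 0. It did not pass with the libraries labelled LN229-R (-0.93, adjusted p = 0.35), where the count was 0. The count was 5 without LN229 STM2457 replicate 3, 2 without LN229 STM2457 replicate 1 and 6 with the replicate number as a block. MKI67, the proliferation marker Ki-67, had 6841, 5136 and 7327 against 3772, 2068 and 4180 in LN229 and overlapping values of 10531, 12359 and 13554 against 9491, 10967 and 11422 in U87 MG. Its difference of -0.80 (interval -1.48 to -0.13) did not pass after adjustment (adjusted p = 0.098). The median difference of the list, -0.53, was -0.23 without replicate 2 of LN229 with STM2457. In S phase 27 of 32 genes fell and 2 rose in LN229, and 6 fell and 2 rose in U87 MG. The medians were -0.84 and -0.28. RFC3, a subunit of the clamp loader, was among the 3 that passed the difference (-1.15, SE 0.28, adjusted p = 0.016). The count of 3 was 1 to 6 without 1 library. No S phase gene passed with the libraries labelled LN229-R, RFC3 being at -1.08 (adjusted p = 0.17), and with the replicate number as a block 8 did. The count became 1 without U87 MG DMSO replicate 1, U87 MG STM2457 replicate 2 or LN229 DMSO replicate 1 or 3, 6 without U87 MG STM2457 replicate 1 and 5 without LN229 STM2457 replicate 1.

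ERK signalling raises a set of early genes and feedback regulators. Of 21 the difference was below 0 for 6 and above 0 for 1, and 10 fell in LN229 against 4 in U87 MG. These became 7 below 0 and 2 above with the libraries labelled LN229-R. ETV4 (ENSG00000175832, chromosome 17, 43527844 to 43579620, - strand), a transcription factor of the ETS family, had 1385, 1588 and 1437 normalized counts with DMSO and 176, 215 and 184 with STM2457 in LN229, and 696, 1060 and 858 against 657, 936 and 885 in U87 MG. The treatments overlapped fully in U87 MG and were far apart in LN229. The difference was -2.86 (SE 0.23, adjusted p = 1.2e-05). SPRY4, a feedback inhibitor of receptor tyrosine kinase signalling, had 15972, 22178 and 19406 against 1956, 2767 and 3331 in LN229 and 947, 1167 and 1096 against 685, 794 and 904 in U87 MG (difference -2.42, SE 0.25, adjusted p = 6.4e-05). EGR1, an immediate early factor, fell in both lines, with effects of -3.32 in LN229 and -1.15 in U87 MG (difference -2.18, SE 0.22, adjusted p = 5.4e-05). The gene of the growth factor receptor FGFR1 fell from 9209, 9244 and 7685 to 1723, 1828 and 1442 in LN229 and from 8047, 8927 and 11349 to 6117, 6052 and 6362 in U87 MG (difference -1.79, SE 0.18, adjusted p = 5.3e-05). The listed DMSO values of FGFR1 overlapped between the lines, and the listed STM2457 values did not.

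Of 29 targets of p53 the difference was below 0 for 7, beside 6.36% of all genes, and above 0 for 3, a share near the 10.1% of all genes. In this list 2 genes changed in opposite directions, beside 209 of all 16075 genes. PHLDA3, an inhibitor of AKT, had 3679, 3439 and 3157 against 5643, 5913 and 5315 in U87 MG and 4377, 5034 and 3888 against 2667, 2678 and 2274 in LN229 (difference -1.52, SE 0.15, adjusted p = 4.7e-05). MDM2, the ubiquitin ligase of p53, had 2030, 1925 and 2138 against 2388, 2507 and 2937 in U87 MG and 4634, 4595 and 4774 against 2940, 3510 and 3163 in LN229 (difference -0.90, SE 0.13, adjusted p = 0.00074). In both genes the treatments did not overlap in either line. CDKN1A, the cell cycle inhibitor p21, had a difference of -0.19 (interval -0.53 to 0.15) that did not pass. In the fit with the libraries labelled LN229-R 6 were below 0 and 1 above 0. The 3 above 0 became 1 with equal totals or upper quartiles, and without U87 MG STM2457 replicate 3, LN229 DMSO replicate 1 or 3 or LN229 STM2457 replicate 1.

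RNA-binding proteins of splicing had small differences in one direction. Of 29 SR proteins and hnRNPs the difference was below 0 for 8 and above 0 for none, with a median of -0.38, and 22 fell in LN229 against 3 in U87 MG. HNRNPA3 had 11320, 11399 and 11894 against 8103, 7468 and 8042 in LN229 and overlapping values of 9788, 10279 and 9708 against 10119, 10426 and 11777 in U87 MG (difference -0.67, SE 0.12, adjusted p = 0.0022). SRSF1, TRA2B and HNRNPD had differences of -0.56, -0.58 and -0.64. The count of 8 was 15 with equal totals and 4 to 11 without 1 library. It fell to 4 without LN229 DMSO replicate 3 and to 5 without LN229 DMSO replicate 1 or 2, U87 MG DMSO replicate 1 or 2 or U87 MG STM2457 replicate 2 or 3. With the libraries labelled LN229-R it was 3, and TRA2B did not pass (-0.54, adjusted p = 0.17). The 59 cytosolic ribosomal protein genes gave no call (median -0.24).

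Chaperones of the endoplasmic reticulum, which rise in the unfolded protein response, did not move with the ATF4 targets. Of 26 genes the difference was above 0 for 2 and below 0 for 5, with a median of -0.06 (0 and 6 with the libraries labelled LN229-R). Of all genes 10.1% were above 0 and 6.36% below, so the count above 0 was near that share. HSP90B1, the chaperone GRP94, fell in both lines, from 45336, 46576 and 40380 to 13850, 12994 and 12172 in LN229 and from 28195, 29367 and 28811 to 16376, 15333 and 18803 in U87 MG (difference -0.98, SE 0.15, adjusted p = 0.00081). The fall was deeper in LN229, whose listed values began higher and ended lower. MANF, a secreted stress protein, fell in LN229 (-0.91) and was at 0.07 in U87 MG (difference -0.98, SE 0.16, adjusted p = 0.0013).

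The extracellular matrix is a meshwork of proteins that cells secrete and crosslink. Of 28 matrix proteins and crosslinking enzymes 14 fell in U87 MG and none rose, against 10 that fell and 2 that rose in LN229, and the difference was above 0 for 11 and below 0 for 5. Over all genes 8.29% fell in U87 MG and 20.0% in LN229, and 10.1% had a difference above 0 and 6.36% below. Within the matrix list a difference above 0 was called for 7, and one below 0 for 4, with the libraries labelled LN229-R. LOXL2, a collagen crosslinking enzyme, had 43567, 54910 and 75832 normalized counts with DMSO and 17050, 26106 and 26398 with STM2457 in U87 MG. In LN229 it rose from 4977, 4472 and 5265 to 8459, 7114 and 8100. The listed values of the lines thus moved towards each other without overlap between treatments in either. The difference was 2.00 (SE 0.28, adjusted p = 0.00047). PLOD2, a lysyl hydroxylase of collagen, fell from 6865, 7955 and 15427 to 2575, 3228 and 3734 in U87 MG and was at 0.48 in LN229, where it did not pass (difference 2.07, SE 0.37, adjusted p = 0.0023).

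Some matrix proteins went the other way. VCAN, the proteoglycan versican, fell from 15301, 13055 and 12581 to 3863, 2240 and 3438 in LN229 and had overlapping values of 4504, 5247 and 4293 against 5131, 6976 and 5480 in U87 MG (difference -2.45, SE 0.25, adjusted p = 5.8e-05). LAMA4, a laminin chain, fell in LN229 from 34661, 32694 and 26287 to 4677, 3807 and 5163 and overlapped in U87 MG, with 2206, 1668 and 2429 against 2236, 2659 and 2234 (difference -2.97, SE 0.22, adjusted p = 6.3e-06). MMP16, a membrane-bound metalloproteinase, showed the same pattern (difference -1.98, SE 0.22, adjusted p = 9.3e-05), with an effect of -1.77 in LN229 and 0.21 in U87 MG. The metalloproteinase inhibitor TIMP2 rose in LN229, from 26774, 21253 and 26029 to 80893, 54789 and 76860, and its value in U87 MG, -0.32, did not pass (difference 1.82, SE 0.27, adjusted p = 0.00082).

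Of 30 collagen genes 10 fell in U87 MG and 7 in LN229, and the difference was above 0 for 7 and below 0 for 2. Over all genes 8.29% fell in U87 MG and 20.0% in LN229, and 10.1% were above 0 and 6.36% below, so the falls in LN229 and the differences below 0 were near the share of all genes. Of the collagen genes 4 were above 0 and 2 below with the libraries labelled LN229-R. COL6A1 (chromosome 21, 45981737 to 46005050, + strand), a chain of collagen VI, had 38872, 36628 and 34957 against 22802, 21492 and 21526 in U87 MG and 11426, 10494 and 10742 against 20081, 24608 and 17397 in LN229. Listed values that were far apart between the lines with DMSO overlapped with STM2457. The difference was 1.66 (SE 0.17, adjusted p = 4.7e-05). COL1A1, a chain of collagen I, had 13498, 9521 and 17373 against 4151, 2397 and 3111 in U87 MG and overlapping values of 145, 109 and 169 against 207, 77.7 and 132 in LN229 (difference 1.95, SE 0.45, adjusted p = 0.011). Its partner COL1A2 fell in both lines (-2.64 in U87 MG and -2.32 in LN229), with a difference of 0.32 whose interval, -1.18 to 1.83, was wide. COL9A1 was detected almost only in LN229, where it fell from 156, 282 and 211 to 12, 15.7 and 32.7.

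**Figure D5:**
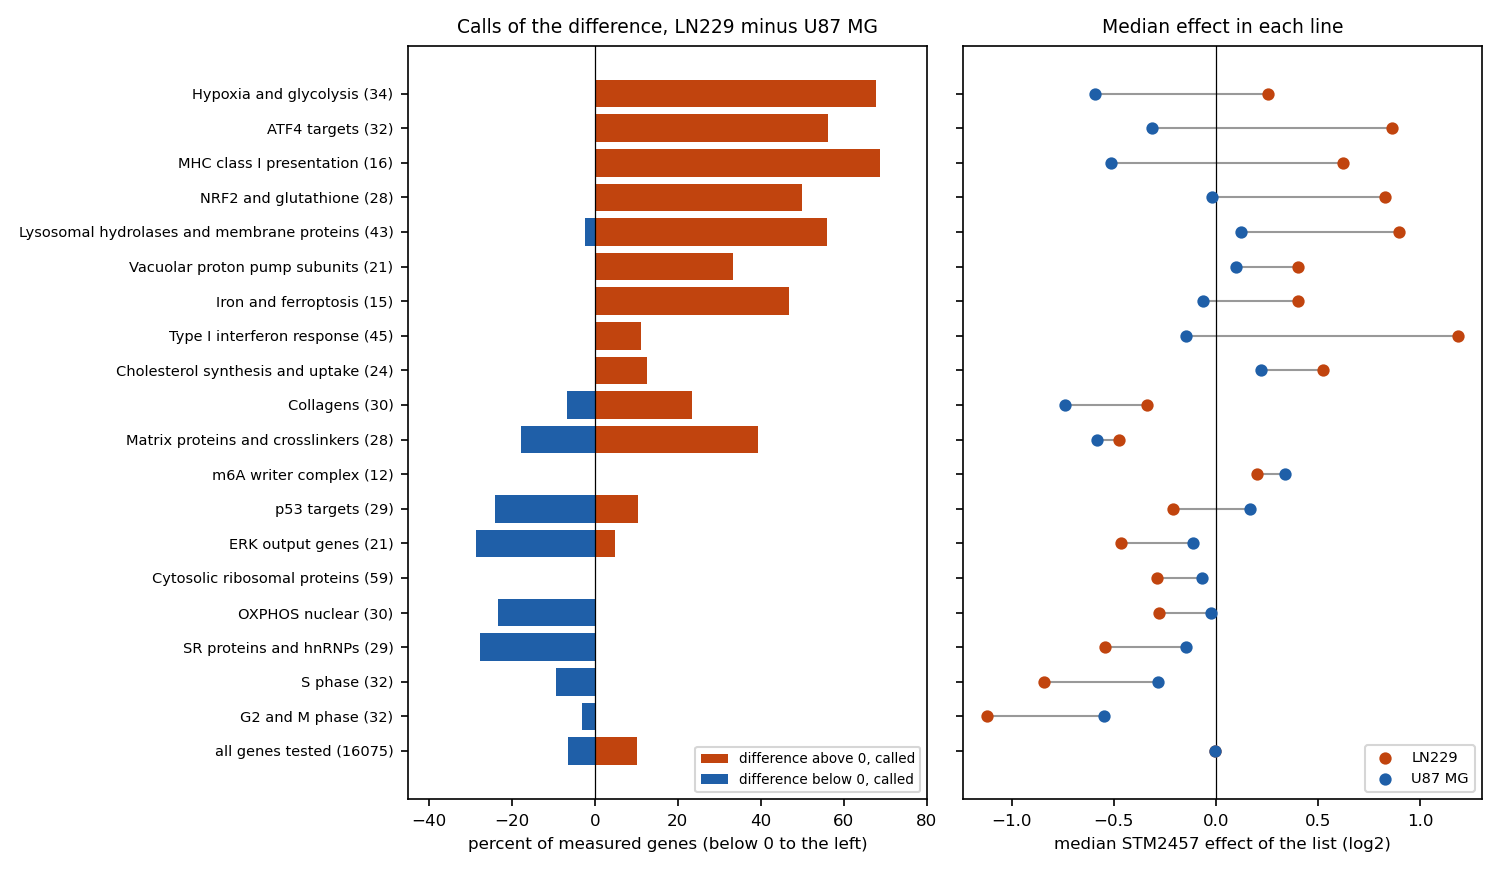
For 20 gene lists (number of measured genes in brackets), the left panel gives the percent of genes with a called difference above 0 (to the right) and below 0 (to the left), and the right panel the median STM2457 effect (log2) in LN229 (orange) and U87 MG (blue). Hypoxia and glycolysis has a negative median in U87 MG (-0.59), a positive one in LN229 (0.26) and 23 of 34 genes called above 0, and G2 and M phase has a negative median in both lines (-1.12 and -0.55) with 1 call.

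Among genes that changed in LN229 and did not pass in U87 MG, with a mean of at least 100 normalized counts in each table, some differences were very large. PHACTR1 (chromosome 6, 12716805 to 13290484, + strand), a regulator of actin and protein phosphatase 1, rose from 28, 15 and 31.5 to 2141, 1773 and 1673 in LN229 and had 108, 135 and 127 against 136, 149 and 188 in U87 MG (difference 5.88, SE 0.35, adjusted p = 2.1e-06). The calcium-binding protein NECAB2 rose from 0.56, 9.78 and 3.01 to 175, 903 and 174 in LN229 (difference 6.90, SE 0.94, adjusted p = 0.00042), and the growth factor FGF7 from 72.2, 18.6 and 39 to 923, 320 and 678 (4.33, SE 0.75, adjusted p = 0.0021). CHI3L1, a secreted chitinase-like glycoprotein, and CCN4 had differences of 5.55 and 4.71. With the libraries labelled LN229-R those were 1.73 and 1.54 and did not pass (adjusted p = 0.24 and 0.35), so they depend on which libraries are taken as LN229.

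Downwards, ABI3BP, a matrix protein, fell from 822, 583 and 578 to 28.9, 16.1 and 99.7 in LN229 and had overlapping values of 1217, 3026 and 2253 against 2623, 3159 and 2070 in U87 MG. With STM2457 it was far below its DMSO range in LN229 and within it, or close to it, in U87 MG. The difference was -4.48 (SE 0.70, adjusted p = 0.0011). The aggrecan-cleaving protease ADAMTS4 (-2.76, SE 0.55) and the proteoglycan decorin, DCN (-2.64, SE 0.53), also fell in LN229 without passing in U87 MG.

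The 372 genes that changed in U87 MG and did not pass in LN229 included regulators of cell shape and secreted proteins. RND3 (chromosome 2, 150468195 to 150539011, - strand), a small GTPase that acts on the actin cytoskeleton, rose from 4477, 4379 and 3094 to 13462, 13571 and 12082 in U87 MG. In LN229 it had 2212, 1949 and 2075 against 2526, 2092 and 2385, which overlapped. The difference was -1.56 (SE 0.18, interval -1.96 to -1.16, adjusted p = 0.00015). NMB, the peptide neuromedin B, rose from 543, 755 and 289 to 3726, 4584 and 2135 in U87 MG and had 361, 390 and 401 against 329, 244 and 309 in LN229 (difference -3.15, SE 0.44, adjusted p = 0.00052). SDC3, the heparan sulfate proteoglycan syndecan 3, rose from 172, 182 and 135 to 521, 473 and 358 in U87 MG and overlapped in LN229 at far higher counts, 16380, 14130 and 15064 against 17881, 12384 and 16375 (difference -1.44, SE 0.23, adjusted p = 0.0013). SCUBE3, a secreted signalling protein, fell in U87 MG (-1.93) and was at 0.74 in LN229 (difference 2.68, SE 0.61, adjusted p = 0.0099).

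Other differences belonged to genes with at least 100 normalized counts in 1 line and under 10 in the other, where the test mostly reflects where the gene was detected. DCT, dopachrome tautomerase of melanin synthesis, went from 39.3, 27.5 and 57.4 to 6734, 2020 and 7111 in LN229 and had 4.14 to 11.1 in all U87 MG libraries. AGT, angiotensinogen, went from 2.34, 6.2 and 8.74 to 354, 138 and 232 in LN229 and had at most 3.04 in U87 MG. The potassium channel gene KCNA2 fell in LN229 from 850, 851 and 768 to 20.8, 26.3 and 11.6, and MYCN, a transcription factor of the MYC family, from 1268, 2493 and 1636 to 50.8, 178 and 101, while U87 MG had at most 1.86 and 5.01. In the other direction MFAP2, a microfibril protein, had 704, 631 and 573 against 481, 492 and 460 in U87 MG and went from 8.52, 5.95 and 14.3 to 0 in all LN229 libraries with STM2457.

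The genes of the complex that STM2457 acts on had no called difference between the lines. METTL3 had 648, 636 and 639 normalized counts with DMSO and 610, 686 and 741 with STM2457 in U87 MG, and 1190, 1081 and 1205 against 1152, 1013 and 1218 in LN229. The treatments overlapped in both lines. The difference was -0.12 with an interval of -0.43 to 0.19. The list of m6A writers held 12 genes, more than the complex described above, among them TRMT112. Of these 12 genes 5 rose in each line and none fell, beside 22.9% of all genes that rose in LN229 and 11.2% in U87 MG. RBM15B (chromosome 3, 51391268 to 51397908, + strand), a cofactor that guides the complex to its targets, rose from 3048, 3072 and 3227 to 6113, 6191 and 6748 in U87 MG and from 3994, 3806 and 3818 to 7292, 6191 and 7333 in LN229 (difference -0.19, interval -0.45 to 0.07). The reader YTHDF2 rose from 1522, 1481 and 1544 to 2525, 2455 and 2641 in U87 MG and from 3359, 3458 and 3373 to 6179, 6082 and 6217 in LN229 (difference 0.11, interval -0.09 to 0.32).

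Of the 13 readers and erasers 4 had a called difference, all below 0, beside 6.36% of all genes called below 0. None had one with the libraries labelled LN229-R. YTHDC2 (chromosome 5, 113513683 to 113595285, + strand), a reader with an RNA helicase domain, rose from 822, 762 and 590 to 1119, 938 and 848 in U87 MG and fell from 1976, 1722 and 1884 to 1170, 1327 and 1106 in LN229. Its treatments did not overlap in either line. The difference was -1.06 (SE 0.19, adjusted p = 0.0029), and -0.80 (adjusted p = 0.088) with the libraries labelled LN229-R. IGF2BP2, a reader that stabilises its targets, fell in both lines, from 2889, 2508 and 2609 to 1344, 1299 and 1343 in LN229 and from 2746, 2954 and 3100 to 2459, 2475 and 2197 in U87 MG (difference -0.70, SE 0.12, adjusted p = 0.0019, and -0.51 with adjusted p = 0.073 with the libraries labelled LN229-R).

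Genes that changed the same way in both lines included ALDH1B1, BLOC1S3, TGFA and RRM2, all with large effects in each. ALDH1B1, a mitochondrial aldehyde dehydrogenase on chromosome 9 (38392664 to 38398661, + strand), rose from 662, 663 and 936 to 1916, 2229 and 2569 in U87 MG and from 592, 597 and 623 to 2227, 1779 and 2116 in LN229 (difference 0.17, interval -0.28 to 0.61). TGFA, the growth factor TGF-alpha, fell from 976, 1470 and 2211 to 301, 419 and 592 in U87 MG and from 7252, 6786 and 6536 to 1707, 1901 and 1431 in LN229 (difference -0.24, interval -1.04 to 0.57). RRM2, a subunit of ribonucleotide reductase, fell with effects of -1.73 in LN229 and -1.44 in U87 MG (difference -0.29, interval -1.07 to 0.50). BLOC1S3, a subunit of a complex of lysosome-related organelles, rose by 1.51 in LN229 and 1.79 in U87 MG (difference -0.28, interval -0.75 to 0.20). For RENBP, an epimerase of amino sugars that binds renin, the rises of 3.01 in LN229 and 1.99 in U87 MG gave a difference of 1.02 whose interval, -0.68 to 2.71, is wide.

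These are bulk samples, in which fewer cells of a type and less RNA per cell cannot be told apart. Markers of other cell types were measured for that reason. Of 11 microglia and macrophage markers AIF1, C1QA, C1QB, CX3CR1, P2RY12, PTPRC and TYROBP were not in both tables, and only 2 passed the filter. The summed level of the 4 in both tables was 81.1 to 120.5 in LN229 with DMSO and 275.6 to 711.0 with STM2457. Most of it was CD68, a lysosomal glycoprotein (means of 80.3 and 440.9). In U87 MG the sum was 11882.2 to 14927.3 with DMSO and 13298.3 to 20469.8 with STM2457, again mostly CD68 (means of 13189.4 and 17614.9). CD68 rose in LN229 (2.34) and was at 0.40 in U87 MG (difference 1.94, SE 0.43, adjusted p = 0.0092). Of 9 endothelial markers CLDN5 and ERG were not in both tables, and the summed level was 599.4 to 771.5 in LN229 with DMSO, 1421.3 to 1696.9 with STM2457 and 213.0 to 417.5 in U87 MG. Fibroblast and pericyte markers summed to 34290.3 to 63907.1 in U87 MG with DMSO and 12631.6 to 17271.9 with STM2457, and to 27496.3 to 31928.8 and 7711.4 to 9948.4 in LN229. With DMSO, COL1A1 and COL1A2 made up most of that sum in U87 MG (means of 13464.1 and 25407.6) and CSPG4 most of it in LN229 (26056.5). With STM2457, CSPG4 was the most abundant member in both lines (5423.8 in U87 MG and 6264.2 in LN229). The sums fell with STM2457 in both lines without overlap, as did many matrix genes, and the part of a shift between cell types in those results was not tested. Of 11 markers of the oligodendrocyte lineage 6 were in both tables, and MAG, MOBP, NKX2-2, OLIG1 and SOX10 were not. Their sum moved in opposite directions without overlap, from 41423.0 to 45400.3 in LN229 with DMSO to 23204.7 to 25966.2 with STM2457, and from 5963.5 to 7390.2 to 8399.0 to 9348.6 in U87 MG. It holds CSPG4, which had the largest mean of the 6 in LN229 with DMSO and in both U87 MG groups. The sum of 14 markers of astrocytes and glioma stem cells went from 107166.6 to 112260.6 to 76216.4 to 91808.2 in LN229, and overlapped in U87 MG, at 141683.6 to 181665.2 and 150475.2 to 188956.5. Of 7 neuronal markers in both tables the sum was 10258.4 to 10581.7 and 9649.8 to 9900.6 in LN229 and overlapped in U87 MG, at 3860.7 to 4587.3 and 4499.3 to 5279.3. The part of these shifts in the results above was not tested.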

How the data were processed

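Polyadenylated RNA was measured in 12 libraries, 3 per group. The values are normalized counts per gene, a signal that the authors deposited as 1 table per line, each normalized on its own. The submitters' processing notes name Trimmomatic 0.39, STAR 2.7.11a, Salmon 1.4.0, DESeq2 and GRCh38/hg38 without giving their roles. Whole reads could not be recovered, so no count test was run. Values were compared as log2(value + 1), a scale that understates the change of low genes. A linear model with 1 mean per group was fitted to all 16075 genes at once with limma 3.58.1 (R 4.3.3, variance trend), and 3 contrasts were tested: the STM2457 effect in each line and their difference. The 4 groups shared 1 estimate of the spread per gene, so a call in 1 line also rests on the spread in the other. P-values were Benjamini-Hochberg adjusted over all 16075 genes, with a threshold of 0.05, and intervals are 95%. The sum of values per library was between 23044279 and 25349361, and 3 replicates a group limit the precision.

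Genes of both tables were matched by Ensembl identifier without its version. Positions are those of GENCODE 29 on GRCh38, found for 15932 genes, and promoters are from RefSeq GRCh38.p14. Genes with a promoter on chromosome 8 were left out when the promoters to print were picked. Named genes were the 8 largest opposite differences in each direction with a mean of at least 100, the 6 largest in each direction of genes changed in 1 line only or alike in both, 4 in each direction of genes detected in 1 line, up to 4 called members of each of 47 gene lists, and a panel of METTL3, METTL14, WTAP, YTHDF2, CDKN1A, MDM2, MKI67, COL1A1, COL1A2, GPNMB and MGMT. Unnamed loci, pseudogenes, antisense, host and readthrough genes were left out. Other list members with values in the text were picked after their values were seen. The gene set and the lists were chosen with earlier results of these data known. The fit was tested on simulated data. Alternatives were other pseudocounts, filters, scalings, variance models and thresholds, the replicate number as a block, the libraries labelled LN229-R, and leaving out each library. Results on a few of the named genes are not reported here.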

Additional observations from a re-analysis of the deposited data

Results flagged for a closer look

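The test of the difference between the STM2457 effects in LN229 and U87 MG passed for 2653 genes, and 209 of them rose in 1 line and fell in the other. Each gene named here is one of the latter, with its log2 difference, LN229 minus U87 MG, tested by the same contrast. Those that rose in LN229 and fell in U87 MG were FYB1 (6.69), CA9 (5.76), ASS1 (4.31), SLC7A5 (3.55), CYP26B1 (3.50), SLC16A3 (3.41), THBS1 (2.97) and CIITA (2.93). Those that fell in LN229 and rose in U87 MG were CD22 (-4.97), ANXA1 (-3.16), SNX22 (-2.98), ADAMTS5 (-2.73), CSPG4 (-2.49), MATR3 (-2.40), TLCD1 (-2.28) and HSPA6 (-2.22). The U87 MG levels of SNX22 were near the limit of detection (3.07 to 4.16 with DMSO and 4.72 to 16.1 with STM2457), so its rise there is uncertain. FYB1 had only 3.05 to 5.59 in U87 MG with DMSO, so its fall there rests on a few counts. CA9 (0.809 to 3.18) and ASS1 (1.96 to 7.56) were near that limit in LN229 with DMSO. The symbol MATR3 belongs to more than 1 Ensembl identifier, so its value is uncertain.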

How the results depend on the processing

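The count of 2653 genes with a difference was 1182 at an adjusted p under 0.01, 1243 with a change of at least 1 (log2) required, and between 1894 and 2660 without 1 library. Differences above 0 (1630) numbered 813 and 848 under the same thresholds and 1269 to 1608 without 1 library. Differences below 0 (1023) numbered 369 and 395, 1587 with equal totals, 1563 with array weights, and 625 to 1053 without 1 library, the lowest without LN229 DMSO replicate 3 (625) or 1 (631). The LN229 count of 6898 was 2355 with a change of at least 1 and 5556 to 7164 without 1 library. The U87 MG count of 3140 was 1442 at an adjusted p under 0.01, 711 with a change of at least 1, and 2085 (without U87 MG STM2457 replicate 2) to 3480 without 1 library. With the libraries labelled LN229-R 2096 genes passed. None of the 188 named genes that passed changed sign under an alternative run, but of the 2604 called genes that could be tested with the libraries labelled LN229-R 2592 kept their sign, and the share of calls above 0 went from 61.4% to 45.8% with equal totals and 49.0% with equal upper quartiles. Of these genes 165 passed without each library in turn 168 under each of the other settings apart from the libraries labelled LN229-R, and 146 of the 185 tested with those libraries. Replicate numbers were shared between DMSO and STM2457, but nothing in the labels says that they pair samples. Deviations of like-numbered samples correlated at 0.0383 to 0.167 in U87 MG and 0.0731 to 0.0941 in LN229, and 6 of 6 DMSO libraries correlated best with their own number, a hint from the data and not the design. With the replicate number as a block 3520 genes passed, 2065 above and 1455 below 0, with 7560 in LN229 and 3929 in U87 MG.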
